A study of Mus musculus with 24 samples.

Results

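Trimethylation of histone H3 at lysine 4 (H3K4me3) was called in 9134 peaks of the mouse retina at postnatal day 2 (P2), and 885 of them (9.69%) had no counterpart in the list of postnatal day 17 (P17). These 885 lost peaks were chosen by measured values: a peak of the P2 H3K4me3 list was called lost when it shared no base with any of the 9629 peaks of the P17 H3K4me3 list, and kept otherwise, which left 8249 kept peaks. Lost therefore means absent from the later peak list, not a measured absence of the mark. Since the members were selected on H3K4me3 at both ages, their widths, genes, neighbours and promoter letters are given as a description, with values of kept peaks beside some of them. Differences with an interval are given for SOX8, SOX9 and H3K27ac peaks and for annotated gene starts, which the choice did not use.

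All libraries came from wild-type retina and were made by CUT&RUN, in which an antibody brings a nuclease to a chromatin protein and the DNA released around it is sequenced. Each of the 24 reactions held 600000 nuclei. At each age, 2 libraries each were made with antibodies to H3K4me3, H3K27ac, SOX9 or nonspecific IgG, and 4 with SOX8 antibodies (2 antibodies, 2 replicates each). Sex, strain and the number of animals behind a library are not given in the sources used here. Per the labels, the groups differed in age and antibody. Each target at each age had a single list of peaks, and these 8 lists held 349901 peaks in all. Whether a list draws on every library of its group is not stated. No list carries values for single libraries, so no error between replicates could be computed, and the IgG libraries were not analysed here. The intervals below are 95% Wilson intervals for a share and 95% Newcombe intervals for a difference of shares. They cover counting error over peaks only. Peaks are not replicates of an age, and nothing below measures the error between animals.

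H3K4me3 is deposited around the start sites of genes that are active or poised, and broad stretches of it are known at genes that set cell identity. H3K27ac, acetylation of lysine 27 of the same histone, marks active promoters and enhancers. In the mouse retina at P2, progenitor cells still divide and give rise to rods, bipolar cells and Müller glia, the main glial cells of this tissue; by P17 proliferation has ceased and the eyes are open. SOX8 and SOX9 are closely related transcription factors of the SOXE group that bind DNA through an HMG box, and both are known in retinal progenitors and Müller glia. The retina was taken whole, so a smaller number of cells carrying a mark and less of the mark in each cell cannot be told apart.

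The promoters at the widest lost peaks show the sequence that carried H3K4me3 at P2. RefSeq's promoter table for GRCm38.p6 held a start by strand for 581 of the 734 genes called lost below. Printed first are the 250 bases before the start of the 6 leading genes by width that the table held, read 5′ to 3′ along the gene. Capitals mark ACAAAG or ACAATG on either strand, which are variants of the core recognised by SOX proteins. A match of letters is not a binding site.
Olig2, chr16:91225300-91225549, plus strand: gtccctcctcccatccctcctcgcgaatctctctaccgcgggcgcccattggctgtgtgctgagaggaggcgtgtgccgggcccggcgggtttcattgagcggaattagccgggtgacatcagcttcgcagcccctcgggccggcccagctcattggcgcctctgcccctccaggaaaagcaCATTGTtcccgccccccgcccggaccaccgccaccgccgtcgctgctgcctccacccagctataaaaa
Sox2, chr3:34649745-34649994, plus strand: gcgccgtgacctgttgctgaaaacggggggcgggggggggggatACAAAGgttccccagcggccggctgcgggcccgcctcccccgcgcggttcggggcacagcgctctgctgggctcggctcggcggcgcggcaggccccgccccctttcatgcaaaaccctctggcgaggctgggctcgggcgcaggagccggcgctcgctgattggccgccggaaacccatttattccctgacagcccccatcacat
Id2, chr12:25096093-25096342, minus strand: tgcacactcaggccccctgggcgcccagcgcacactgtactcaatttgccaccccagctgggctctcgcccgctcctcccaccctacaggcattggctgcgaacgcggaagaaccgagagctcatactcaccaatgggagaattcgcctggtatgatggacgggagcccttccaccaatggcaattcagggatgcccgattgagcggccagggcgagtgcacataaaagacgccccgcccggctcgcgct
Nr2e1, chr10:42583591-42583840, minus strand: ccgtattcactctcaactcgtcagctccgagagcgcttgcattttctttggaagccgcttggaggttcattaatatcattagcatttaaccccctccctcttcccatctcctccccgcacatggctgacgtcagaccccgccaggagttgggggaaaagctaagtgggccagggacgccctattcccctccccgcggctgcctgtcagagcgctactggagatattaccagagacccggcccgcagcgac
Frmd4a, chr2:4559504-4559753, plus strand: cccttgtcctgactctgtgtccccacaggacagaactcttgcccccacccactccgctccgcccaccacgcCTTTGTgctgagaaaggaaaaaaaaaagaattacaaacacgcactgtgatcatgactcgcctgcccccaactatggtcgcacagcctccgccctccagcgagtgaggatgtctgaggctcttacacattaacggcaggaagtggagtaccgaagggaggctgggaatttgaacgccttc
Zic5, chr14:122465659-122465908, minus strand: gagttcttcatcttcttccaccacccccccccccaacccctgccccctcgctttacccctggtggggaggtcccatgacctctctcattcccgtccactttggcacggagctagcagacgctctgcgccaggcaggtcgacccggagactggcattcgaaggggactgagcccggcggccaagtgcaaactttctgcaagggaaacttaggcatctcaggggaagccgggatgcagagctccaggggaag
All 6 stretches lay inside a P2 SOX9 peak over all 250 bases, and those of Sox2, Id2 and Zic5 also lay wholly inside a P2 SOX8 peak. Sox2 held the letters 206 bases before the start, Frmd4a 179 bases and Olig2 68 bases before it, while the windows of Id2, Nr2e1 and Zic5 held neither form. The other set shows 4 genes of cell division, chosen after their values were seen because this group held the most lost peaks. Capitals here mark CCAAT on either strand, the letters recognised by the factor NF-Y.
Cdk1, chr10:69352913-69353162, minus strand: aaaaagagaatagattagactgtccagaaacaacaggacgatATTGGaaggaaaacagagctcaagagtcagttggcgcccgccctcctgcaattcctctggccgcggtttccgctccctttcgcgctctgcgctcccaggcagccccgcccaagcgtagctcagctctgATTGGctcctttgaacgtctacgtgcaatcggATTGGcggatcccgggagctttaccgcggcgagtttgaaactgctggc
Ccnb1, chr13:100786487-100786736, minus strand: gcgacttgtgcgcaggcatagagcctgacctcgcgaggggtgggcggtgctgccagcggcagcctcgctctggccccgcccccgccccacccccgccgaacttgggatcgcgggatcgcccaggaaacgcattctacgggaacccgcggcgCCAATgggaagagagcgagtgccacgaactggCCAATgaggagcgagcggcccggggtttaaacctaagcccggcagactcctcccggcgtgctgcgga
Top2a, chr11:99024190-99024439, minus strand: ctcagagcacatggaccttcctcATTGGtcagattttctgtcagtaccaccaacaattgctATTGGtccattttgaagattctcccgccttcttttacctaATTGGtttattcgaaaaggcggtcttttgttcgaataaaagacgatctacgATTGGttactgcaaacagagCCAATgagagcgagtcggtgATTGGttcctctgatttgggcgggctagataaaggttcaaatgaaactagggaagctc
Cdc20, chr4:118437344-118437593, minus strand: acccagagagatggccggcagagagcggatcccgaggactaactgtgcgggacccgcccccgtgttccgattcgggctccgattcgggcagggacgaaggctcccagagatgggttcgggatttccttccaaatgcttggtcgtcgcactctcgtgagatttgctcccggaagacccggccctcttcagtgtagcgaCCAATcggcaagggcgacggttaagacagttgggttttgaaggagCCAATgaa
Top2a held 6 such matches, Cdk1 held 3, and Ccnb1 and Cdc20 held 2 each. The stretches of Cdk1, Top2a and Cdc20 lay inside P2 SOX9 peaks, that of Ccnb1 lay in no P2 SOX peak, and none of the 4 lay in a P2 SOX8 peak.

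Lost peaks were of ordinary width for the P2 list. Their median width was 3457 bp (quartiles 2796 and 4332 bp, range 1242 to 15933 bp), against 3549 bp (2908 and 4434 bp) for kept peaks. When all P2 peaks were divided by width into 4 groups of nearly equal number, the lost share was 11.2% in the narrowest, then 9.28%, 9.16% and 9.16%. Wide peaks were lost as well: 146 of 1406 peaks of at least 5000 bp (10.4%), 26 of 203 of at least 8000 bp (12.8%) and 10 of 83 of at least 10000 bp (12%). The nearest P17 H3K4me3 peak lay a median of 58528 bp away (quartiles 22438 and 147748 bp). Only 9 lost peaks (1.02%) had one within 1 kb, 104 (11.8%) within 10 kb and 575 (65%) within 100 kb.

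At the edge of the rule, the closest lost peaks lay at Tango2 and at Pidd1, each 390 bp from a P17 peak, followed by chr12:110843108-110847212 at 599 bp. On the other side, the kept peaks with the smallest shared length were chr2:98666237-98667332, chr2:98662223-98663460 and chr8:19784484-19785825, which shared 300, 589 and 1035 bp with a P17 peak. Gaps of this size were rare among lost peaks, whose lower quartile was 22438 bp.

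Of the 885 lost peaks, 740 (83.6%, 81 to 85.9%) lay within 1 kb of the start of a protein-coding gene, against 7785 kept peaks (94.4%) and 93.3% of the whole P2 list. The difference of -10.8 percentage points (-13.4 to -8.41) leaves 145 lost peaks (16.4%) away from such a start, against 5.62% of kept peaks. Of these 145, 18 lay within 1 kb of the start of a long noncoding RNA, and 121 of the 885 had no protein-coding start within 5 kb. The table used gives the ends of genes only, so peaks were not assigned to exons, introns or untranslated regions. For 153 of the lost genes it gave no strand and either end of the gene stood for the start.

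A gene was called lost when a lost peak lay at its start and no P17 H3K4me3 peak lay within 1 kb of it. By this rule 734 of 9686 genes with a P2 H3K4me3 peak were lost (7.58%). A further 38 were mixed, with a lost peak at the start and also a P17 peak at it or at another end, and 8914 were kept. A kept gene had only kept P2 peaks at its start, whether or not a P17 peak lay within 1 kb of that start. Lost peaks lay at the start of 1 gene in 707 cases and of 2 or more genes in 33. On the X chromosome 41 of 253 P2 peaks were lost (16.2%), against 844 of 8881 on the autosomes (9.5%), and single autosomes ranged from 6.71% on chromosome 8 to 11.6% on chromosome 3. The nearest P2 H3K4me3 neighbour, at any distance, was itself lost for 123 of the 885 lost peaks (13.9%) and 695 kept peaks (8.43%). Where that neighbour lay within 20 kb, it was lost for 49 of 220 lost peaks (22.3%) and 172 of 2400 kept peaks (7.17%). These counts use the same lists as the choice of members and are a description.

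The genes at lost peaks included many regulators of retinal progenitors. Of 25 listed progenitor genes, 24 had P2 H3K4me3 at the start and 13 of these (54.2%) were lost, against 7.58% of all genes with the mark. The lists were chosen with results of these data known, and no test was made on them. Their 14 lost peaks, with that of the mixed gene Lhx2, had a median width of 7406 bp, against 3457 bp for all lost peaks. A P2 SOX9 peak overlapped 11 of the 14, a P2 SOX8 peak 9 and a P17 H3K27ac peak 3. Over all P2 H3K4me3 peaks the shares were 47.3%, 25.8% and 84.9%. Over all lost peaks they were 28.5%, 9.6% and 28.7%. Among kept peaks in the widest of 4 width groups they were 76.2%, 52.2% and 92.9%, and among lost peaks of that group 55%, 22.5% and 32.1%. Kept progenitor genes included Pax6, Rax, Six3 and Six6, which encode homeodomain factors of the eye field and retina, and the Notch effectors Hes1, Hes5 and Hey1.

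The widest of all lost peaks lay at Ccnd1, which encodes cyclin D1, the D-type cyclin that drives progenitors into S phase (chr7:144929258-144945190, 15933 bp). P2 SOX9 peaks covered 14245 bp of it and P2 SOX8 peaks 4554 bp. At P17 no SOX peak overlapped it, and H3K27ac peaks covered 45.1% of it. The same stretch of chromosome 7 held lost peaks at the neighbouring genes Fgf15 (chr7:144893748-144900781, 7034 bp) and Fgf3 (chr7:144837264-144840478, 3215 bp), which encode fibroblast growth factors. Both overlapped P2 SOX9, over 3688 and 2926 bp, and neither overlapped P2 SOX8 or P17 H3K27ac.

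Sox2, the SOXB1 factor that maintains neural progenitors, had a lost peak of 10646 bp (chr3:34646881-34657526) with 5246 bp under P2 SOX9 and 4200 bp under P2 SOX8. No P17 H3K4me3 peak lay within 563451 bp of it. Lost peaks stood on either side of it. That on the left, chr3:34636946-34643937, held the hairpin of miR-1897 and overlapped P2 SOX9 over 3568 bp. That on the right, chr3:34659690-34668659, had no protein-coding start within 5 kb, overlapped P2 SOX9 over 8118 bp and P2 SOX8 over 4669 bp, and alone of the 3 was touched by P17 H3K27ac, over 57.4% of its length.

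Lost peaks lay at 3 genes of the Id family, whose products block basic helix-loop-helix factors. The Id2 peak measured 10505 bp (chr12:25091518-25102022), Id3 8157 bp (chr4:136141329-136149485) and Id1 6992 bp (chr2:152733896-152740887), and each overlapped both P2 SOX8 and P2 SOX9. P17 H3K27ac was left at Id3 only, over 27.3% of the peak. Nr2e1, which encodes the nuclear receptor TLX of neural progenitors, lost a peak of 10448 bp (chr10:42576548-42586995) with P2 SOX8 over 2458 bp and P2 SOX9 over 4994 bp. The Notch1 receptor gene lost a peak of 7778 bp (chr2:26499123-26506900) that overlapped P2 SOX8 over 4927 bp and P2 SOX9 over 7016 bp, and P17 H3K27ac still covered 53.6% of it.

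Both genes of the factors studied were among the lost. The Sox8 peak (chr17:25564698-25572621, 7924 bp) overlapped P2 SOX9 over 6595 bp and P2 SOX8 over 3145 bp. The Sox9 peak (chr11:112780930-112786716, 5787 bp) overlapped P2 SOX9 over 5278 bp and no P2 SOX8 peak. Neither overlapped a SOX or H3K27ac peak at P17. Of 19 listed SOX family genes, 9 had P2 H3K4me3 at the start and 6 were lost (66.7%, against 7.58% of all genes). These were Sox2, Sox3, Sox6, Sox8, Sox9 and Sox13, while Sox4, Sox11 and Sox12 were kept.

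**Figure D1:**
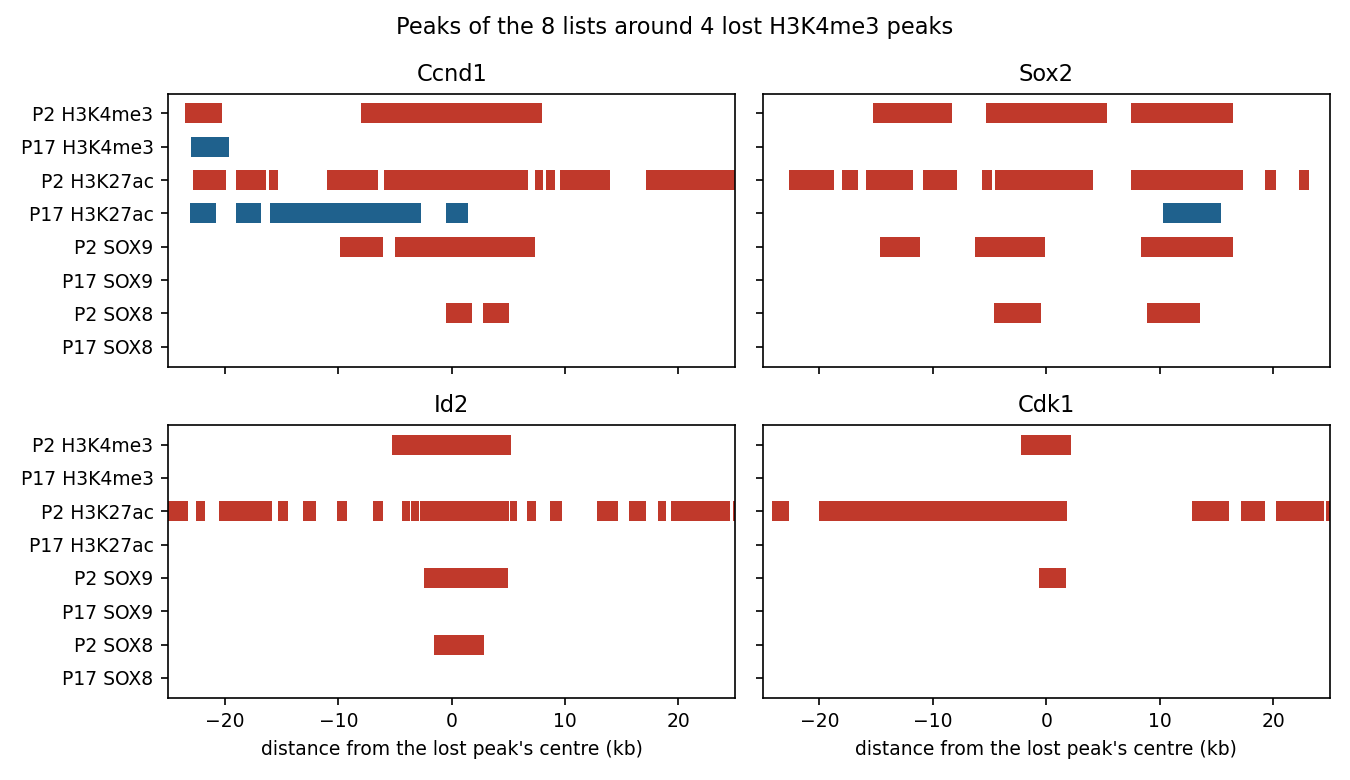
Peaks of the 8 lists (rows) within 25 kb of the centre of the lost H3K4me3 peak at Ccnd1, Sox2, Id2 and Cdk1, with distance from that centre in kb on the horizontal axis; red bars are P2 peaks and blue bars P17 peaks. The P17 H3K4me3 row is empty at the centre of all 4 panels, and P17 H3K27ac touches the central peak at Ccnd1 but not at Sox2, Id2 or Cdk1.

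The 4 loci in the map differed in what was left at P17. Around Id2 and Cdk1 the 25 kb on either side held P2 H3K27ac but no P17 peak of any list. At Ccnd1 a kept H3K4me3 peak lay to the left of the lost one, and P17 H3K27ac covered much of the left side of the window and reached into the lost peak. At Sox2, P17 H3K27ac was left over the lost peak to the right.

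Genes that direct neurogenesis formed a smaller group. Of 24 listed genes, 21 had P2 H3K4me3 and 8 were lost (38.1%, against 7.58% of all genes with the mark). The lost peaks had a median width of 5370 bp. A P2 SOX9 peak overlapped 6 of the 8, a P2 SOX8 peak 2, and P17 H3K27ac 2. The shares were 47.3%, 25.8% and 84.9% over all P2 H3K4me3 peaks and 28.5%, 9.6% and 28.7% over all lost peaks. Olig2, a basic helix-loop-helix factor of dividing retinal progenitors, had the widest peak (chr16:91219129-91230682, 11554 bp), overlapped by P2 SOX9 over 4869 bp and by no P2 SOX8 peak. Neurog2 (5012 bp, chr3:127631241-127636252), which encodes a proneural factor, overlapped both P2 SOX8 and P2 SOX9. The Notch ligand gene Dll4 lost 8255 bp and Foxn4, a factor for amacrine and horizontal cell fates, lost 5910 bp; both overlapped P2 SOX9 only. The peak of Atoh7, the factor needed for ganglion cells, was narrow at 2863 bp and overlapped no SOX peak. The 13 kept genes of this list included the Notch ligand gene Dll1, the Notch pathway gene Hes6, Insm1, Sox4 and Sox11, and also Neurod1, Neurod4, Otx2 and Prdm1, which act in photoreceptors or bipolar cells.

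The machinery of cell division was lost in the largest number. Of 40 listed cell cycle and DNA replication genes, 37 had P2 H3K4me3 and 24 were lost (64.9%, against 7.58% of all genes). Their peaks were near the ordinary width, with a median of 3870 bp. Of the 24, 11 overlapped P2 SOX9, 1 overlapped P2 SOX8 and 8 overlapped P17 H3K27ac. Over all P2 H3K4me3 peaks the shares were 47.3%, 25.8% and 84.9%, and over all lost peaks 28.5%, 9.6% and 28.7%. The 11 of 24 with SOX9 was thus near the share of all P2 peaks and above that of all lost peaks. The 8 of 24 with P17 H3K27ac was near the share of all lost peaks. E2f2, a transcription factor for S-phase genes, had the widest (chr4:136169672-136176051, 6380 bp), with no P2 SOX peak and 54% of it under P17 H3K27ac. It lay next to the lost peak of Id3. E2f8 (5252 bp) and Mki67 (4789 bp), whose product Ki-67 marks dividing cells, overlapped P2 SOX9 only, and E2f1 (5197 bp) was the single gene of the list with a P2 SOX8 peak.

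Kinases and cyclins of mitosis were among them. Cdk1 (chr10:69349409-69353844, 4436 bp), Ccna2 (4572 bp), Ccnb1 (3730 bp) and Cdc20 (4010 bp) were lost, as were the topoisomerase gene Top2a (4049 bp) and the survivin gene Birc5 (3909 bp). Of the MCM helicase subunits, Mcm2, Mcm3, Mcm5 and Mcm6 were lost and Mcm4 and Mcm7 were kept. The Mcm2 peak lay 840 bp from a P17 H3K4me3 peak, the closest of this list, so the loss at this gene rests on a short gap. Aurka, Aurkb, Plk1, Foxm1 and Pcna were also kept.

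Müller glia genes did not all stay. Of 28 listed, 18 had P2 H3K4me3 and 9 were lost (50%, against 7.58% of all genes with the mark). Among the lost were Sox8, Sox9 and Id2, which are also known in progenitors. Cyp26a1, which encodes an enzyme that degrades retinoic acid, had a lost peak of 9782 bp (chr19:37691898-37701679) with no SOX peak at either age and no P17 H3K27ac. The glutamate transporter gene Slc1a3 lost a peak of 4295 bp (chr15:8707640-8711934) and Nfia, a nuclear factor I gene, lost one of 7103 bp (chr4:97579715-97586817), and P17 H3K27ac covered 45.2% and 68.5% of them. At Crym and Apoe it covered 87.1% and 72.9%. The Vim peak (4733 bp), at the gene of the filament protein vimentin, overlapped P2 SOX8 and P2 SOX9 and no P17 peak. Glul, Hes1, Nfib and Dkk3 were kept, and 10 genes of the list, Rlbp1 and Kcnj10 among them, had no P2 H3K4me3 at the start.

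Among developmental signals, 12 of the 26 listed genes with P2 H3K4me3 were lost (46.2%, against 7.58% of all genes with the mark). Some belonged to the hedgehog pathway, a group picked after the values were seen: the transcription factor genes Gli1 (4623 bp), Gli2 (5421 bp) and Gli3 (7576 bp) and the inhibitor gene Hhip (5217 bp) were lost, while the receptor gene Ptch1 was kept. All 4 overlapped P2 SOX9, Gli1 also overlapped P2 SOX8, and none of the 4 overlapped P17 H3K27ac. The BMP inhibitor gene Nog (3450 bp) overlapped both P2 SOX8 and P2 SOX9, whereas Wnt7b, Wnt5b and the retinoic acid enzyme gene Aldh1a3 overlapped neither. With only those genes whose strand was known, 6 of 17 genes of this list with P2 H3K4me3 were lost.

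Genes of fetal growth and RNA binding lost 4 of 14 (28.6%, against 7.58% of all genes with the mark). These were the chromatin protein gene Hmga2 (5409 bp), the mRNA-binding protein genes Igf2bp1 (5831 bp) and Igf2bp3 (8079 bp), and Trim71 (4968 bp). Both Igf2bp genes overlapped P2 SOX8 and P2 SOX9, and none of the 4 overlapped P17 H3K27ac.

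A few lost peaks lay at listed genes of early-born neurons, which does not name the cells that carried them. Of ganglion cell genes with P2 H3K4me3, 4 of 8 were lost (50%), namely Ebf3, Elavl2, Elavl4 and Rbpms. The other 17 of the 25 listed had no P2 peak at the start. Of amacrine and horizontal cell genes with the mark, 2 of 12 were lost (16.7%), Onecut1 (8376 bp) and Onecut2 (8669 bp). The share over all genes with the mark was 7.58%. Of these 6, Onecut2 overlapped P2 SOX9 and the others overlapped no P2 SOX peak, and none overlapped P17 H3K27ac. Axon guidance and adhesion genes lost 3 of 26 (11.5%), Efna2, Epha3 and Robo1, a share near the background of 7.58%.

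No listed gene of rods, cones or bipolar cells was lost, but few had the mark at P2, and beside the background of 7.58% a count of 0 in lists this short is not a result about them. All 8 rod and cone genes and all 5 bipolar cell genes with P2 H3K4me3 were kept, and 13 further rod and cone genes and 7 further bipolar genes had the mark at P17 only. All 26 cytosolic ribosomal protein genes were kept. These lists also check the tissue: 8 of 30 photoreceptor genes carried H3K4me3 at P2 and 21 at P17. None of 31 Hox genes and 1 of 27 endothelial, microglial and pericyte genes, Kdr, carried it at either age. The listed genes of vessels and microglia were thus nearly absent from the P2 list and added no lost peak. Genes of these cells outside the list were not counted.

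**Figure D2:**
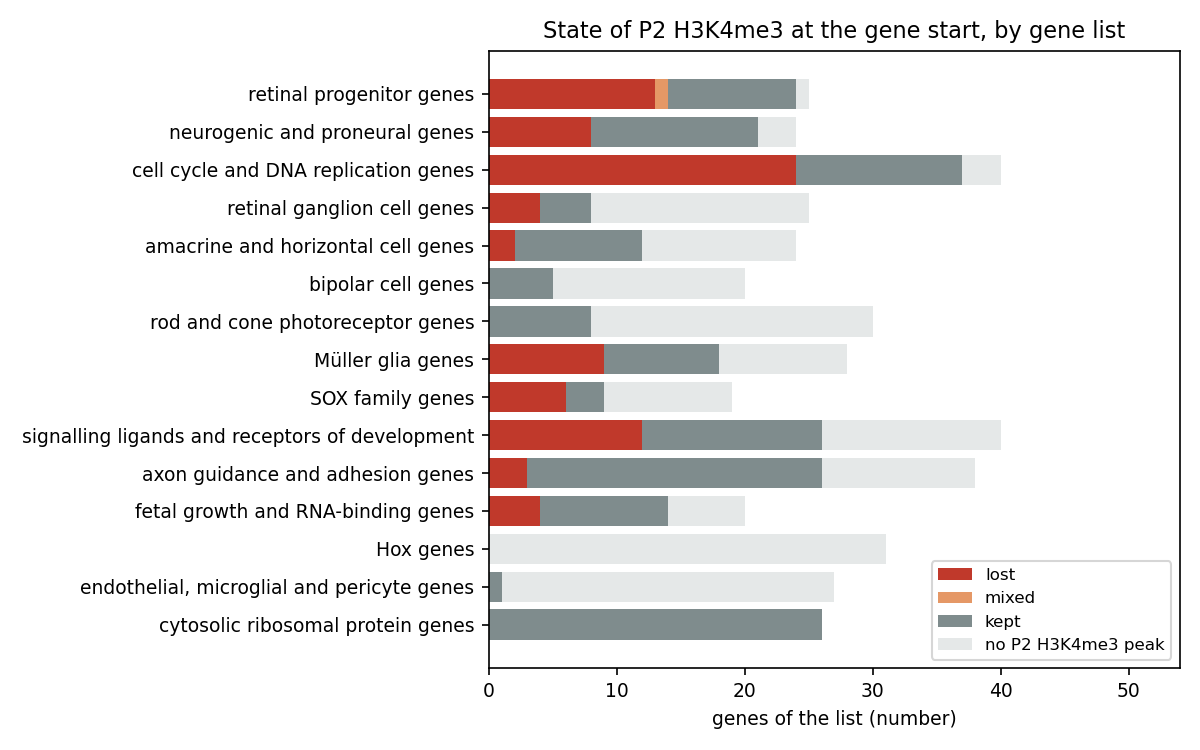
Number of genes on each of the 15 lists (rows) by state of P2 H3K4me3 at the gene start: lost in red, mixed in orange, kept in dark grey and without a P2 peak in light grey. Lost genes numbered 24 for cell cycle and DNA replication and 13 for retinal progenitors, and 0 for rod and cone, bipolar and ribosomal protein genes.

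**Figure D3:**
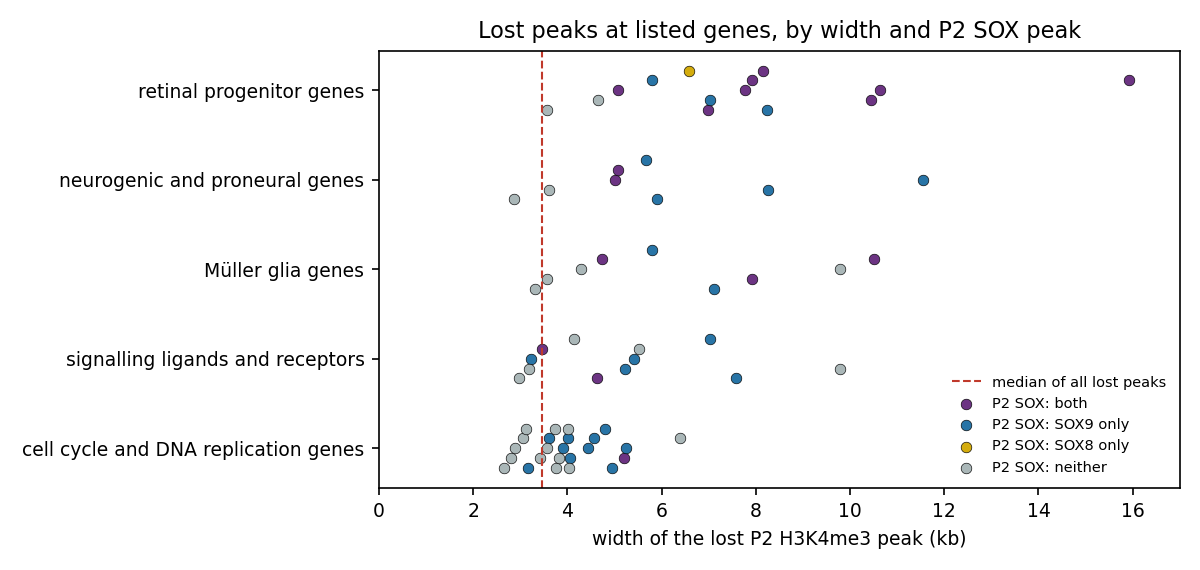
Width in kb of each lost peak (points) at genes of 5 lists, coloured by the P2 SOX peaks overlapping it, with the median of all lost peaks as a dashed line; a gene on several lists is drawn in each. Progenitor peaks reach 15933 bp and most overlap SOX9, while cell cycle peaks reach 6380 bp at most.

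In the plot of widths by list, the lost peaks of progenitor regulators were mostly wide and overlapped by both factors or by SOX9. Those of cell cycle genes were of ordinary width and included 1 with SOX8. Wide peaks carried SOX9 often in any case: in the widest of 4 width groups it overlapped 55% of lost and 76.2% of kept peaks.

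Several of the widest lost peaks belonged to no list. Frmd4a, which encodes a scaffold protein, lost 10436 bp (chr2:4554916-4565351) with P2 SOX8 over 1496 bp, P2 SOX9 over 5485 bp and P17 H3K27ac over 20% of it. Zic5, a zinc finger gene, lost 10186 bp (chr14:122459607-122469792) with P2 SOX8 over 2010 bp and P2 SOX9 over 2546 bp. Fezf2, a zinc finger factor of forebrain and retinal neurons, lost 10172 bp (chr14:12337773-12347944) with P2 SOX9 only, and Lhx9 lost 9496 bp with no SOX peak at either age. Of the 12 widest lost peaks at genes, P2 SOX9 overlapped 9, P2 SOX8 overlapped 7 and P17 H3K27ac overlapped 2, Ccnd1 and Frmd4a. For scale, among kept peaks in the widest of 4 width groups these shares were 76.2%, 52.2% and 92.9%, and among lost peaks of that group 55%, 22.5% and 32.1%.

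Across all members, SOX factors at P2 were less frequent at lost than at kept peaks. A P2 SOX9 peak overlapped 252 lost peaks (28.5%, 25.6 to 31.5%) and 4065 kept peaks (49.3%, 48.2 to 50.4%), a difference of -20.8 points (-23.9 to -17.6), against 47.3% of all P2 H3K4me3 peaks. A P2 SOX8 peak overlapped 85 lost peaks (9.6%, 7.83 to 11.7%) and 2274 kept peaks (27.6%, 26.6 to 28.5%), a difference of -18 points (-20 to -15.6), against 25.8% overall. The lists do not give a height, so a weak peak and a strong peak count alike. When only the wider 50% of each SOX list was counted, the differences shrank to -5.12 points for SOX9 and -6.61 points for SOX8 with the same direction.

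The difference held at every width. In the narrowest group of H3K4me3 peaks, SOX8 overlapped 1.96% of lost and 9.66% of kept peaks, and in the widest 22.5% and 52.2%. SOX9 overlapped 14.5% of lost and 24.7% of kept peaks in the narrowest group, and 55% and 76.2% in the widest. Wide lost peaks therefore carried SOX9 more often than narrow ones, yet less often than kept peaks of like width. Lost peaks with a P2 SOX9 peak had a median width of 4134 bp, and those without one 3259 bp.

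**Figure D4:**
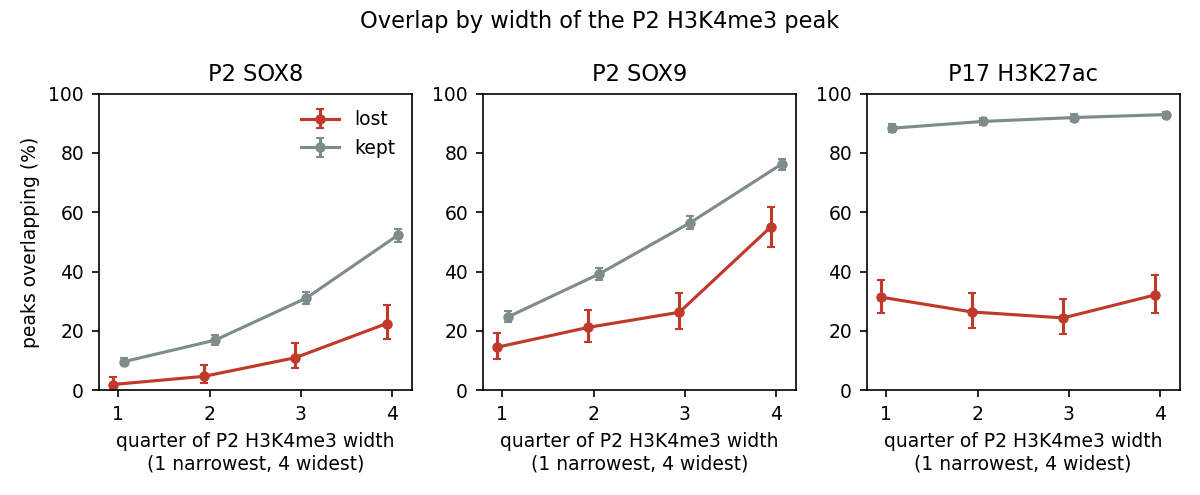
Percent of lost (red) and kept (grey) P2 H3K4me3 peaks overlapping P2 SOX8, P2 SOX9 or P17 H3K27ac in 4 groups of peak width, with 95% Wilson intervals as bars. Lost peaks lie below kept peaks in all 4 groups of each panel, from 1.96% against 9.66% to 22.5% against 52.2% for SOX8.

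The 2 factors overlapped lost peaks mostly together or as SOX9 alone. Both overlapped 74 lost peaks (8.36%, median width 5034 bp), SOX9 alone 178 (20.1%, 3894 bp), SOX8 alone 11 (1.24%, 3689 bp) and neither 622 (70.3%, 3258 bp). Among kept peaks the same classes held 26.4%, 22.9%, 1.18% and 49.5%. Where SOX9 overlapped a lost peak it covered a median of 69.66% of it, and where SOX8 did so it covered 55.74%, against 63.27% and 51.6% at kept peaks. The widest lost peaks with SOX8 alone lay at Foxd1, a forkhead factor of the temporal retina (6589 bp), Yju2 (4819 bp) and Grik3 (4445 bp), a kainate receptor gene. Lost peaks at a gene start overlapped P2 SOX9 in 28.1% and the others in 30.3%, a difference of -2.24 points whose interval of -10.7 to 5.43 includes 0.

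At P17 most lost peaks overlapped no H3K27ac peak either. At P2 an H3K27ac peak overlapped 839 of them (94.8%, 93.1 to 96.1%), against 98.5% of kept peaks and 98.2% of all, a difference of -3.73 points (-5.41 to -2.42). At P17 an H3K27ac peak overlapped 254 lost peaks (28.7%, 25.8 to 31.8%) but 7502 kept peaks (90.9%, 90.3 to 91.5%), a difference of -62.2 points (-65.2 to -59.1), against 84.9% overall. The 2 ages are not on 1 scale, since the P2 H3K27ac list held 287845 peaks covering 525.4 Mb and the P17 list 29909 peaks covering 173.4 Mb, and lost and kept peaks are compared within an age. Where P17 H3K27ac remained, it covered a median of 71.27% of a lost peak and 89.48% of a kept peak. It covered at least 50% of 192 lost peaks (21.7%) and the whole of 43 (4.86%). Of the 46 lost peaks without P2 H3K27ac, 1 overlapped H3K27ac at P17 and 45 overlapped it at neither age.

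**Figure D5:**
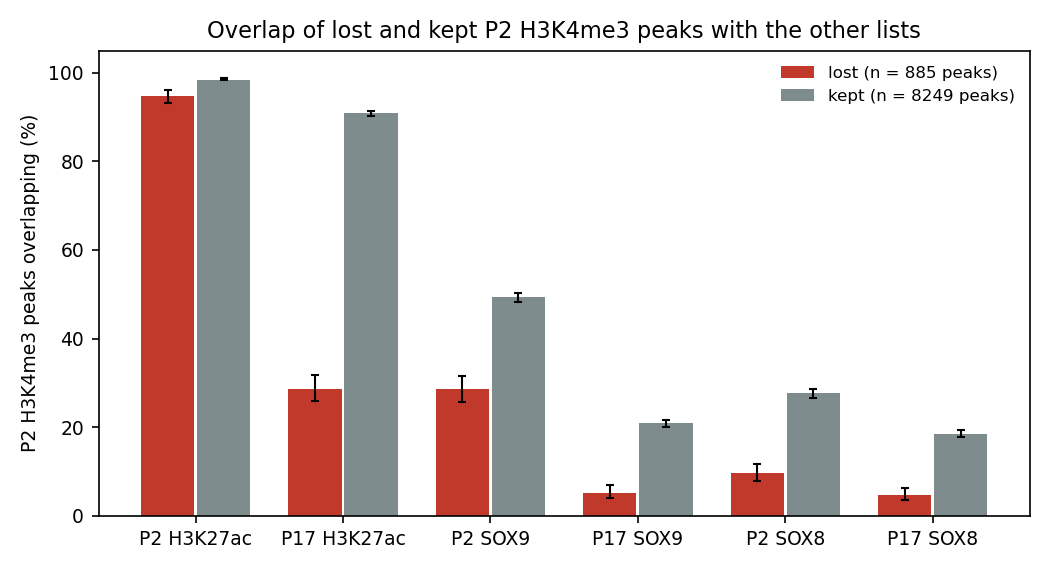
Percent of the 885 lost (red) and 8249 kept (grey) P2 H3K4me3 peaks that overlap a peak of each of the other 6 lists, with 95% Wilson intervals as bars. The widest separation is at P17 H3K27ac, with 28.7% against 90.9%, and the narrowest at P2 H3K27ac, with 94.8% against 98.5%.

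Remaining H3K27ac differed with the place of the lost peak. It overlapped 69 of the 145 lost peaks away from a protein-coding start (47.6%, 39.6 to 55.7%) and 185 of the 740 at a start (25%, 22 to 28.2%), a difference of -22.6 points for peaks at a start (-31.2 to -14). The 5 widest lost peaks without a gene start within 5 kb illustrate this. P17 H3K27ac covered the whole of chr18:66013625-66024792 (11168 bp), chr13:99441137-99448867 (7731 bp) and chr10:44463998-44471631 (7634 bp), and 57.4% of the peak beside Sox2, but none of chr5:119830501-119838931 (8431 bp). Of the 5, P2 SOX9 overlapped 4 and P2 SOX8 overlapped 2. Among peaks at genes, the widest with H3K27ac over its whole length lay at Nxph4 (chr10:127529525-127537311, 7787 bp), which encodes a neurexophilin.

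Lost peaks that SOX factors had overlapped at P2 kept H3K27ac more often. P17 H3K27ac overlapped 107 of 263 lost peaks with a P2 SOX8 or SOX9 peak (40.7%, 34.9 to 46.7%) and 147 of 622 without (23.6%, 20.5 to 27.1%), a difference of 17.1 points (10.3 to 23.9). Among kept peaks the difference was 8.53 points (7.31 to 9.77), from 95.2% against 86.6%. By class, H3K27ac remained at 47.3% of lost peaks with both factors, 38.2% with SOX9 alone and 23.6% with neither. The widest group of lost peaks did not show it beyond counting error, with a difference of 4.23 points (-8.57 to 16.5). In that group 67 of 209 lost peaks overlapped P17 H3K27ac, among them those of Ccnd1, Notch1 and Frmd4a, while those of Sox2, Id2 and Nr2e1 did not. A total of 137 lost peaks (15.5%) had a P2 SOX peak and neither SOX nor H3K27ac at P17.

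SOX peaks at P17 were few at these sites. A P17 SOX8 peak overlapped 41 lost peaks (4.63%, 3.43 to 6.22%) and 18.5% of kept peaks, a difference of -13.9 points (-15.4 to -12.1), against 17.2% of all. A P17 SOX9 peak overlapped 46 (5.2%, 3.92 to 6.86%) and 20.9% of kept peaks, a difference of -15.7 points (-17.2 to -13.8), against 19.3% of all. Of lost peaks with P2 SOX8, 14 of 85 (16.5%) had SOX8 at P17, against 50.7% of kept peaks with P2 SOX8. For SOX9 these numbers were 22 of 252 (8.73%) and 36.8%. Together 74 lost peaks had a P17 SOX peak, 35 of them with P17 H3K27ac and 39 without, and 13 had both factors.

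Those with both factors at P17 included peaks that had none at P2. Islr2, which encodes a membrane protein of neurons, lost 10146 bp of H3K4me3 (chr9:58194852-58204997), had no P2 SOX peak, and at P17 was overlapped by SOX9 over 8427 bp and SOX8 over 5632 bp without H3K27ac. Espn, the gene of the actin-bundling protein espin (chr4:152125148-152133839, 8692 bp), overlapped both factors at both ages, with SOX9 over 5485 bp at P2 and 6389 bp at P17, also without P17 H3K27ac. Kif26a (6568 bp), a kinesin family gene, overlapped SOX9 over 3036 bp at P2 and over its whole length at P17. In all, 592 lost peaks (66.9%) overlapped no SOX or H3K27ac peak at P17.

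Promoters at lost peaks were also read for their letters, each promoter by itself, so that those of a mixed gene are included. Windows of 300 bases (250 before to 50 after the start) were read for 715 promoters (612 genes) within 1 kb of a lost peak, 8719 within 1 kb of kept peaks only, and 21263 in the whole table. Median GC content was 62% at lost, 63% at kept and 56.3% at all promoters, and the ratio of observed to expected CpG was 0.714, 0.826 and 0.567. On either strand, ACAAAG was found in 17.5% of lost, 11.8% of kept and 16.8% of all promoters, and ACAATG in 5.59%, 6.5% and 11%. Among lost promoters, ACAAAG was found in 19.8% of those whose peak overlapped P2 SOX9 and 16.5% of the others. These shares are a description, since promoters of 1 gene overlap and base composition differs between the groups.

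The E-box form CAGCTG was found in 17.5% of lost, 13% of kept and 15.6% of all promoters, and the cyclic AMP response element TGACGTCA in 2.66%, 3.65% and 2.23%. CCAAT was found in 40.1% of lost, 38.2% of kept and 38.2% of all promoters. It was frequent at the lost cell cycle genes, where 18 of 23 promoters held it (78.3%), against 38.9% of the other lost promoters. TTTCCCGC, an E2F-like element, was found in 3 of these 23 (13%) and 1.41% of all promoters. TTTGAA, the core of the element called CHR at genes of mitosis and added to the search after the data were seen, was found in 9 of the 23 (39.1%) and in 16% of all. None of the 7 motifs contains another, and a match says only that these letters are in the window.

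MicroRNA genes were few among the members. Hairpins lay within 1 kb of 14 lost peaks (1.58%), against 1.39% of kept peaks. Mir9-3, which gives rise to miR-9, a microRNA of neural progenitors, lay in a lost peak of 5954 bp (chr7:79503427-79509380) that overlapped P2 SOX9 over 5461 bp and P2 SOX8 over 2131 bp. At P17 a SOX9 peak overlapped it over 4556 bp, and H3K27ac did not. The mature sequences of 2 such loci, chosen after their values were seen, are shown with the seed, bases 2 to 8, in capitals, as RefSeq gives them.
mmu-miR-9-5p: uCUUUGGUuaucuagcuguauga
mmu-miR-92b-3p: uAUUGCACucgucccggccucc
The P2 peak at the other miR-9 locus with the mark, Mir9-2, was kept, and Mir9-1 had no P2 H3K4me3 peak within 1 kb. The peak at Mir92b (chr3:89224879-89229232, 4354 bp) and that shared by Mir130b and Mir301b (chr16:17123253-17126185, 2933 bp) overlapped neither a P2 SOX peak nor P17 H3K27ac. At P17 the Mir92b peak was overlapped by SOX9 over its whole length and by SOX8 over 3270 bp, and the peak of Mir130b and Mir301b by neither. By the rule for gene starts, the Mir92b peak also counted for the protein-coding gene Muc1 and the other for 2610318N02Rik.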

How the data were processed

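The 8 deposited peak lists give chromosome, start and end, with a score column that the authors' deposited lists set to 0 in every peak. The submitters' processing notes name Bowtie2, SEACR and GRCm38, with no versions or settings. How libraries were combined, the threshold and the use of IgG are not given in the sources used here, and depth is unknown. Positions are printed counted from 1. Peaks overlapped when they shared 1 bp or more. Gene names, starts and sequences came from RefSeq (GRCm38.p6): 17492 of 21887 protein-coding genes had a start by strand, and for the others both ends served. Overlaps, Wilson and Newcombe intervals were computed in Python 3.11.15 with pandas 2.3.3, NumPy 2.4.6 and SciPy 1.17.1, and tested on simulated data. Figures used Matplotlib 3.10.9.

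The members, the 15 gene lists and the tests were chosen with earlier results of these data known. Named were the 12 widest lost peaks at genes, the 8 widest with both P2 SOX factors, the 8 widest without P17 H3K27ac, listed genes with a lost peak (up to 4 a list with values, here extended after seeing the data), the 5 widest away from genes, and the 3 peaks nearest each side of the rule. Some genes that meet these rules are not reported here. The width groups for lists other than P2 SOX8, P2 SOX9 and P17 H3K27ac, the microRNA look-up, the cell cycle promoters and TTTGAA were added after the data were seen. Alternatives were a 50% overlap, a 1 kb gap, wider peaks, width groups, autosomes, peaks trimmed to 500 bp, other distances to genes and peaks at gene starts only.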

Additional observations from a re-analysis of the deposited data

How the results depend on the processing

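In 106 alternatives no difference reversed, and 97 kept their direction and their side of 0 or stayed close to the value reported. Counts of peaks and genes are among the 106 and could not reverse. Close was loose for them: 9 lost progenitor genes in place of 13 still passed. The number of lost peaks was 418 when only the wider 50% of P2 H3K4me3 peaks was used, a list cut by construction. The median width of lost minus kept peaks, -92 bp, was -89.5 bp with a 50% overlap, -90 bp with a gap of 1 kb, -104.5 bp on autosomes and -2.5 bp among the wider 50%. Within width groups, 3 differences had intervals that included 0: P2 H3K27ac in the second group (-1.71 points, upper bound 0.0987), P17 SOX8 in the narrowest (-2.43, upper bound 0.754), and P17 H3K27ac by SOX in the widest (4.23). With starts by strand only, 6 of 17 signalling genes with P2 H3K4me3 were lost, in place of 12 of 26. The other lost genes of that list rest on the use of either gene end as the start. Over all alternatives the lost minus kept difference ranged from -29.7 to -6.61 points for P2 SOX8, -30.2 to -5.12 for P2 SOX9, -67.5 to -42.8 for P17 H3K27ac and -13 to -9.02 for gene starts. No paired analysis was possible because each list is a single set of peaks with no values for replicates. Unknown depth limits every share: a site under the calling threshold at P17 counts as lost.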

Other observations

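Some genes had a lost peak at a start or end and a P17 H3K4me3 peak at the same or another one. Of these 38 mixed genes, the widest lost peak lay at Rara, a retinoic acid receptor gene (chr11:98959018-98967529, 8512 bp), with P2 SOX8 over 3298 bp, P2 SOX9 over 6112 bp, P17 SOX8 over 4835 bp and P17 H3K27ac over 90.3% of it. At Dnmt3a, a DNA methyltransferase gene, the lost peak (3010 bp) overlapped P2 SOX9 over 2238 bp and lay wholly within P17 H3K27ac. At Lhx2, a LIM homeodomain factor of progenitors and Müller glia, the lost peak (3569 bp) overlapped no SOX peak and no P17 H3K27ac.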
